A study of Mus musculus with 24 samples.

Results

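Intact retinal organoids kept in static suspension culture (SSCi) were sequenced on differentiation day 18 (D18) and day 25 (D25), and the 2 libraries of each day, 4 of 24 libraries in the series, were compared over all genes. The organoids were grown from mouse embryonic stem cells by self-organisation in low-adhesion wells, and the optic cups were left attached to the rest of the organoid. On both days the medium held the N2 supplement, taurine, 9-cis retinal and insulin-like growth factor 1. Serum, B27 without vitamin A and amino acids were added to these cultures only from D26, so the interval from D18 to D25 held no change of medium. The wild-type stem cells came from blastocysts of Nrl-GFP transgenic mice, which carry a green reporter driven by the rod gene Nrl, or from the R1 line, and the labels do not say which of the 2 lines gave which library. Repeats of an experiment are biological replicates by the design text, which does not say what separated them. The 3 SSCi libraries of day 32 (D32) came from the same type of culture after serum had been added. The rotating-wall bioreactor (RWB) group, with 2 libraries at D18 and 3 at D25, held optic cups dissected at D10 and turned in a vessel, with serum, B27 and amino acids from D18.

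In the developing retina, cycling progenitors leave the cell cycle in an overlapping order of fates: ganglion cells, horizontal cells, cones and amacrine cells come first, then rods, bipolar cells and Mueller glia. A rod precursor is specified when OTX2 and CRX act with the rod factor NRL, which switches on NR2E3 and together with it the phototransduction genes. The outer segment, the light-sensing cilium packed with discs, and the ribbon synapse are built only after this choice.

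Total estimated counts were between 13724160 and 21604446 in the 4 libraries, and D18 replicate 1 had the most of all 24 libraries. Levels are given as CPM, a library's counts scaled to a common total and then by TMM, a factor that sets the libraries to a common bulk of genes. CPM are not divided by transcript length, so they compare libraries and not genes. Mitochondrially encoded genes took 2.73% and 2.46% of counts at D18 and 4.97% and 3.06% at D25. The eye-field and retinal factor Pax6 stood at 498 and 758 CPM at D18 and 590.5 and 698 CPM at D25. The levels of gene lists for other cell types were summed in each library. The 15 genes of endothelium and blood summed to 179 to 271 CPM in the 4 libraries, of which Kdr, a receptor of vascular growth factor, made up 167 and 165 CPM at D18 and 242 and 258 CPM at D25, while the endothelial cadherin Cdh5 and all 4 globin genes on the list were at 0. The lens list summed to 66.6 to 122 CPM, most of it Prox1, also a factor of retinal horizontal cells, except for 52.3 CPM of the small heat shock gene Cryab in D18 replicate 1, and 8 of its 20 genes were at 0 in each library. The surface epithelium list summed to 99.6 to 163 CPM, with Krt14 at 0, the muscle list to 20.9 to 27.2 CPM, with Myod1 at 0, and the endoderm list to 1.19 to 9.75 CPM, with Alb and Hnf4a at 0. The microglia and immune list summed to 37.2 and 8.76 CPM at D18 and 10.4 and 9.18 CPM at D25. The choroid plexus list summed to 1043 to 1295 CPM and the pigment epithelium list to 876 and 780 CPM at D18 and 971 and 1018 CPM at D25, and the photoreceptor factor Otx2, at 365 and 548 CPM and then 877 and 833 CPM, is on both. The visual cycle gene Rpe65, on the latter list, was at 0 and 0.113 CPM at D18 and at 0 at D25.

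The 2 D18 libraries were unlike each other. Among 11085 genes whose mean log2 CPM reached 3, 209 were more than 4-fold higher in D18 replicate 1 than in replicate 2 and 25 were more than 4-fold higher in replicate 2, against 7 and 11 between the 2 D25 libraries. The gap was led by genes of connective tissue. Thbs1, a secreted matrix glycoprotein, was at 6757 CPM in replicate 1 and 2.60 CPM in replicate 2, Col3a1 at 2038 and 3.33 CPM, and Col1a2, a chain of fibrillar collagen, at 1919.6 and 5.54 CPM. In the other 23 libraries of the series Col1a2 lay between 1.17 and 76.6 CPM. Over the whole list of 24 mesenchyme genes, the summed level was 9465 CPM in D18 replicate 1, 184 CPM in D18 replicate 2, and 159 and 194 CPM at D25. The list of 20 basement membrane and matrix genes summed to 9278 and 1517 CPM at D18 and 989 and 1154 CPM at D25. The 10 widest gaps also held 4 pseudogenes, of which Gm12918 was at 0 in replicate 2 and Gm8203, Gm10182 and Pgam1-ps2 at 0 in replicate 1. Nrl and the cyclin gene Ccnd1 were closer: Nrl stood at 21.7 and 22.3 CPM and Ccnd1 at 887 and 950.4 CPM. Below, wherever leaving out 1 of the 4 libraries removed a call, the adjusted p without that library is given beside it.

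**Figure D1:**
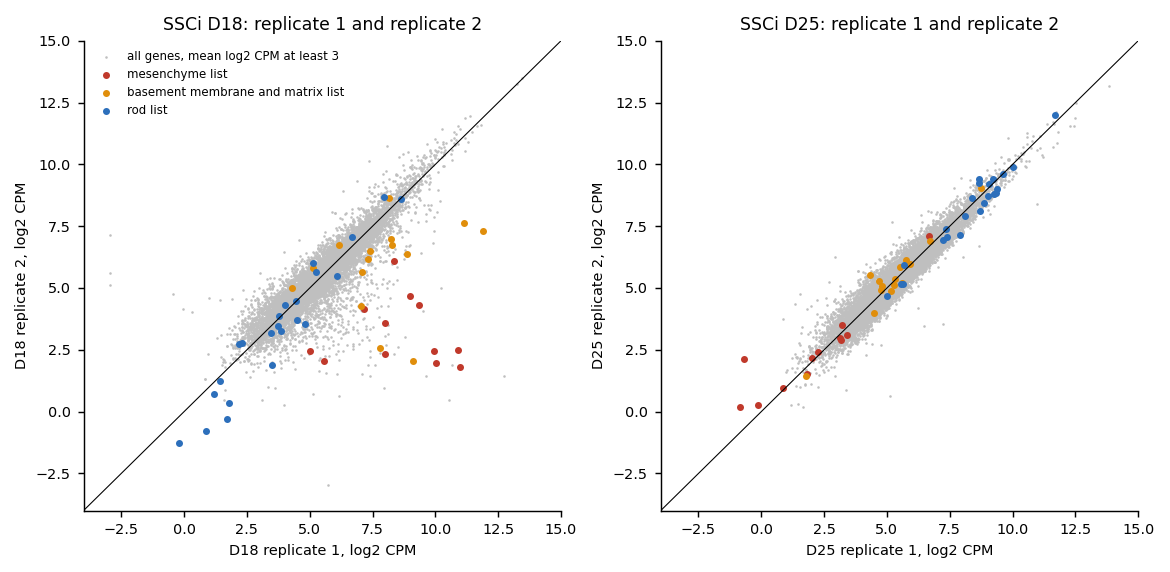
Log2 CPM of each gene in replicate 1 (x axis) and replicate 2 (y axis) of SSCi D18 (left) and D25 (right), with the line of equality. Grey points are genes whose mean log2 CPM reached 3, and coloured points are the mesenchyme, matrix and rod lists. At D18 the mesenchyme points lie far to the right of the line, with a summed level of 9465 against 184 CPM, and at D25 they lie near it.

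From D18 to D25 the organoids gained the transcripts of rods and of synapses and lost those of cycling progenitors and, in part, of ganglion cells. Of 16792 genes tested with edgeR, 1493 rose (8.89%) and 1838 fell (10.9%), so 19.8% were called at an adjusted p under 0.05. The median log2 fold change over all genes tested was -0.06. Counts given below for gene lists are to be read beside these shares of all genes. Without D18 replicate 1 the counts were 795 and 680, and a call held whichever of the 4 libraries was left out for 599 risen genes (3.57% of those tested) and 274 fallen genes (1.63%). The levels at D25 were above those at D18 in every library, with no overlap, for 4507 genes (26.8%), and below for 5098 (30.4%). In bulk RNA, fewer cells of a type and less RNA per cell cannot be told apart. In simulated data with 2 libraries a side, the test found 74% of 4-fold and 25% of 2-fold changes, with 6 false calls among 105. Few genes were changed there and no library was unlike its replicate, so these rates may not hold here. A gene not called may still differ.

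**Figure D2:**
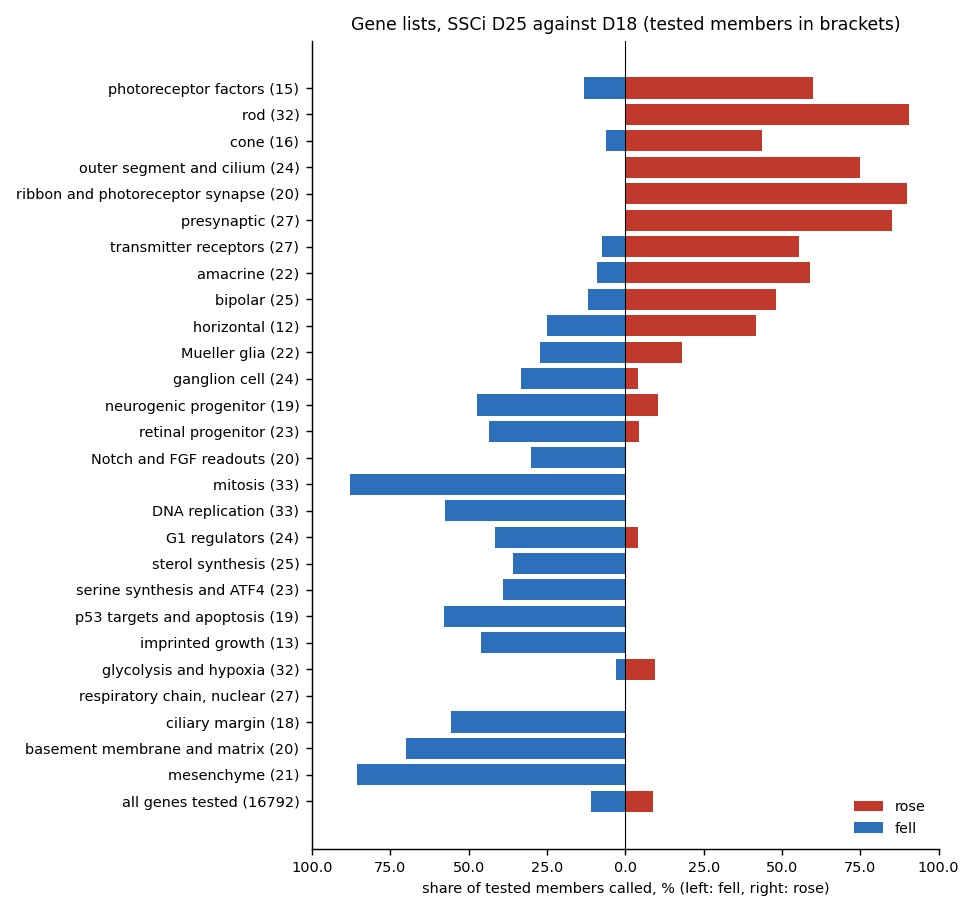
Share of the tested members of each gene list (number in brackets) that rose (red, to the right) or fell (blue, to the left) from SSCi D18 to D25 at an edgeR adjusted p under 0.05, in percent. The bottom bar gives all genes tested, with 8.89% risen and 10.9% fallen. The rod, ribbon synapse and presynaptic bars extend far to the right, and the mitosis and mesenchyme bars far to the left.

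Of 15 tested transcription factors of photoreceptors, 9 rose and 2 fell, with a median log2 fold change of 1.48. Of all genes 8.89% rose and 10.9% fell. The rises numbered 6 to 9, fewest without D18 replicate 1 or D25 replicate 2, when 1 library was left out. Nrl (chr14:55518978-55524981, minus strand, GRCm38), the leucine zipper factor that fixes rod fate, stood at 21.7 and 22.3 CPM in the D18 libraries and 791 and 791 CPM in the D25 libraries, a log2 fold change of 5.17 ± 0.60 (SE) with an adjusted p of 1.2e-05. Nr2e3, the nuclear receptor that NRL switches on and that holds cone genes down in rods, went from 11 and 3.56 CPM to 595 and 675 CPM (log2 fold change 6.44 ± 0.64 (SE), adjusted p = 2.67e-06). In both genes every D25 library was far above every D18 library, and the gap between the D18 libraries was small beside the change.

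The factors that act earlier were already present at D18 and changed less. Crx, the homeodomain activator of rod and cone genes, was at 265 and 396 CPM at D18 and 1109 and 1336 CPM at D25 (log2 fold change 1.89 ± 0.33 (SE), adjusted p = 0.00054). Otx2, which starts the photoreceptor and bipolar lineage, was at 365 and 548 CPM and then 877 and 833 CPM, a log2 rise of 0.90 (adjusted p = 0.0284) that was not called in 3 leave-outs (adjusted p = 0.29 without D18 replicate 1, 0.095 without D25 replicate 1 and 0.103 without D25 replicate 2). Neurod1, a bHLH factor of photoreceptors and amacrine cells, rose from 200.4 and 265 CPM to 652 and 649 CPM, by 1.48 on the log2 scale (adjusted p = 0.00114). Mef2d, a partner of CRX at photoreceptor enhancers, rose by 1.68 (adjusted p = 0.00112). Prdm1, which favours photoreceptor over bipolar fate, was at 118 and 179 CPM and then 265 and 247 CPM, higher at D25 without overlap but not called (log2 fold change 0.79, adjusted p = 0.0606). Thrb, whose product includes the thyroid hormone receptor of cones, was at 104 and 171 CPM at D18 and 58.2 and 50.0 CPM at D25 (log2 fold change -1.34 ± 0.33 (SE), adjusted p = 0.00658), but not in every leave-out (adjusted p = 0.116 without D18 replicate 2, 0.0504 without D25 replicate 1 and 0.0895 without D25 replicate 2). Onecut1, a factor of horizontal cells and early cone precursors, fell by 1.25 on the log2 scale (adjusted p = 0.0146), with the call lost in 3 leave-outs (adjusted p = 0.151 without D18 replicate 2, 0.123 without D25 replicate 1 and 0.0766 without D25 replicate 2).

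Rod genes had the highest median of the 47 lists. All 32 were tested, 29 rose and none fell, against 8.89% of all genes risen, and the median log2 fold change was 3.67. When 1 library was left out, 23 to 25, fewest without D18 replicate 1, were called. Without D18 replicate 1 the median was 3.80. The D25 libraries lay above the D18 libraries, without overlap, for all 32, against 26.8% of all genes. The summed level of the list was 1073 and 1239 CPM at D18 and 11976 and 12250.3 CPM at D25.

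Within phototransduction, Pde6b, a catalytic subunit of the rod phosphodiesterase, rose from 3.33 and 1.13 CPM to 516 and 426 CPM (log2 fold change 7.70 ± 0.67 (SE), adjusted p = 9.35e-07). Its inhibitory subunit Pde6g rose from 2.16 and 1.53 CPM to 167 and 133 CPM (log2 fold change 6.34 ± 0.72 (SE), adjusted p = 9.49e-06). Cngb1, a subunit of the cyclic-nucleotide-gated channel that closes in light, went from 0.75 and 0.282 CPM to 162 and 169 CPM (log2 fold change 8.27 ± 0.96 (SE), adjusted p = 1.3e-05). Sag, the rod arrestin that ends the light response, went from 13.2 and 11 CPM to 668 and 511 CPM (log2 fold change 5.61 ± 0.71 (SE), adjusted p = 2.76e-05). In these genes both D18 libraries were far below both D25 libraries.

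The disc rim gene Prph2 rose from 13.6 and 14.5 CPM to 539.7 and 591 CPM (log2 fold change 5.33 ± 0.53 (SE), adjusted p = 2.67e-06), and its partner Rom1 from 4.78 and 6.78 CPM to 336 and 401 CPM (adjusted p = 9.35e-06). Samd7, a repressor that keeps non-rod genes off in rods, rose from 28.0 and 11.6 CPM to 465 and 351 CPM (log2 fold change 4.36, adjusted p = 1.56e-05). Its relative Samd11, outside the lists but among the 10 largest rises, went from 11.3 and 17.5 CPM to 502 and 598 CPM (log2 fold change 5.26, adjusted p = 2.67e-06). Impg2, a proteoglycan of the matrix around photoreceptors, and Kcnv2, a silent potassium channel subunit of photoreceptors, rose by 3.24 and 3.79 (adjusted p = 2.67e-06 for each).

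Gnat1, Guca1b and Cabp4 were the 3 rod genes not called. Gnat1, the alpha subunit of rod transducin, was at 0.844 and 3.33 CPM at D18 and 4.51 and 4.12 CPM at D25 (adjusted p = 0.279). The calcium sensors Guca1b and Cabp4 were below 3 CPM in all 4 libraries. At D32, Gnat1 was at 141, 88.9 and 109 CPM.

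The D32 libraries show how far each rod gene had come by D25. Taking the mean of the 3 D32 libraries as 100%, the rod genes stood at a median of 1.39% at D18 and 32.3% at D25, and none passed 100% at D25. Furthest along were Nr2e3 at 85.8%, Tulp1 at 74.2% and Nrl at 63.4%. Pde6b had reached 39.5%. There were 6 genes below 10%, among them the calcium exchanger Slc24a1 at 1.4%, Guca1b at 3.38%, Gnat1 at 3.81% and recoverin, Rcvrn, at 4.21%. Rcvrn nonetheless rose from 0.375 and 0.226 CPM to 13.0 and 13.4 CPM between D18 and D25 (log2 fold change 5.40 ± 1.12 (SE), adjusted p = 0.00239) before reaching 398, 239 and 304 CPM at D32. Serum and B27 had been added by D32, so time and medium cannot be told apart in this scale. Genes at the ends of the order were picked after their values were seen.

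**Figure D3:**
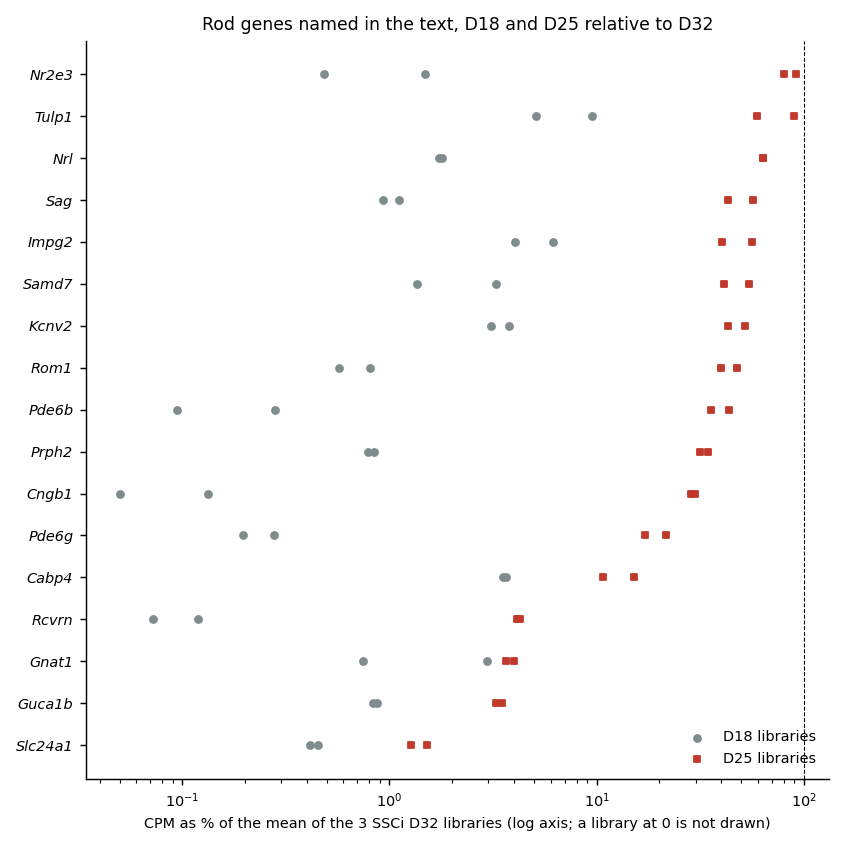
Level of each of the 17 rod genes named in the text in the 2 D18 libraries (grey circles) and the 2 D25 libraries (red squares), as percent of the mean of the 3 SSCi D32 libraries (x axis, log scale, dashed line at 100%). Genes are ordered by their D25 level, from Slc24a1 at 1.4% to Nr2e3 at 85.8%. The D25 squares lie to the right of the D18 circles for each of them.

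CRX and OTX2 recognise a homeodomain core, TAATCC, and its letters were searched on both strands in the 250 bases upstream of each start site in RefSeq's promoters on GRCm38.p6. It was present in 7 of 23 rod promoters (30.4%, 21 of the rod genes matched), against 6.25% of all promoters in the table and 5.37% of those of tested genes. A match is a run of letters and says nothing of binding. The upstream sequences of Sag (chr1:87803430-87803679, plus strand) and Cngb1 (chr8:95306586-95306835, minus strand) are shown because both genes rose and both windows hold the core, which is in capitals wherever it lies on either strand.
Sag: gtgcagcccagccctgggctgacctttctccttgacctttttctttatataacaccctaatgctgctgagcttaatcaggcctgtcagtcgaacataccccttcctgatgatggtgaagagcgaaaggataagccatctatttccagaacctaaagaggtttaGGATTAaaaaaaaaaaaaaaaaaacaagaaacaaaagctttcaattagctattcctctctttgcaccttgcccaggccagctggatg
Cngb1: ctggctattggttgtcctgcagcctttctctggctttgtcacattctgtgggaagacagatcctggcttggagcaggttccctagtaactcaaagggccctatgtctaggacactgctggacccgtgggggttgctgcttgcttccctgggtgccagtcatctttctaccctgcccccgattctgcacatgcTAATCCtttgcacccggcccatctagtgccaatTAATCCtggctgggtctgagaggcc

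Of 16 tested cone genes 7 rose and 1, Thrb, fell, against 8.89% and 10.9% of all genes, with a median log2 fold change of 1.33. The rises numbered 4 to 6, fewest without D18 replicate 1, when 1 library was left out. Opn1sw, the short-wavelength cone opsin, went from 4.55 and 3.84 CPM at D18 to 101 and 94.7 CPM at D25 (log2 fold change 4.54 ± 0.67 (SE), adjusted p = 0.000122) and was at 29.0, 8.60 and 22.8 CPM at D32. Its 2 D25 libraries were close together and above all D18 and D32 libraries. Arr3, cone arrestin, rose from 0.61 and 1.07 CPM to 5.07 and 4.19 CPM (log2 fold change 2.46, adjusted p = 0.00195). The transducin subunits Gnb3 and Gngt2 rose by 2.00 (adjusted p = 5.56e-05) and 2.64 (adjusted p = 0.00467), the latter with a call lost in 1 leave-out (adjusted p = 0.0743 without D18 replicate 1). Ccdc136, a coiled-coil gene enriched in cones, rose from 154 and 197 CPM to 648 and 587 CPM (log2 fold change 1.82, adjusted p = 1.21e-05). Gnat2, the alpha subunit of cone transducin, was at 9.66 and 17.0 CPM and 11.7 and 10.5 CPM, with overlapping days and no call (adjusted p = 0.783). The middle-wavelength opsin Opn1mw had 0 counts at D18 and 2 at D25.

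Genes of the outer segment and its cilium rose in 18 of 24 tested cases and fell in none, against 8.89% and 10.9% of all genes (median log2 fold change 1.63). Leave-outs gave 13 to 17, fewest without D18 replicate 1. Pcdh15, a cadherin of calyceal processes and hair bundles, went from 4.45 and 5.37 CPM to 129 and 107 CPM (log2 fold change 4.59 ± 0.42 (SE), adjusted p = 1.25e-06). Impg1, the partner proteoglycan of Impg2, was at 0.0938 and 0.113 CPM at D18 and 49.2 and 38.4 CPM at D25 (log2 fold change 8.63, adjusted p = 5.25e-06). The 2 ciliary transport genes Ift88 and Kif3a were not called. Ift88 was at 28.1 and 30.6 CPM and 33.7 and 27.1 CPM (adjusted p = 0.896). Kif3a was at 128 and 145 CPM and 124 and 115 CPM (adjusted p = 0.359). These 2 genes were chosen after their values were seen.

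**Figure D4:**
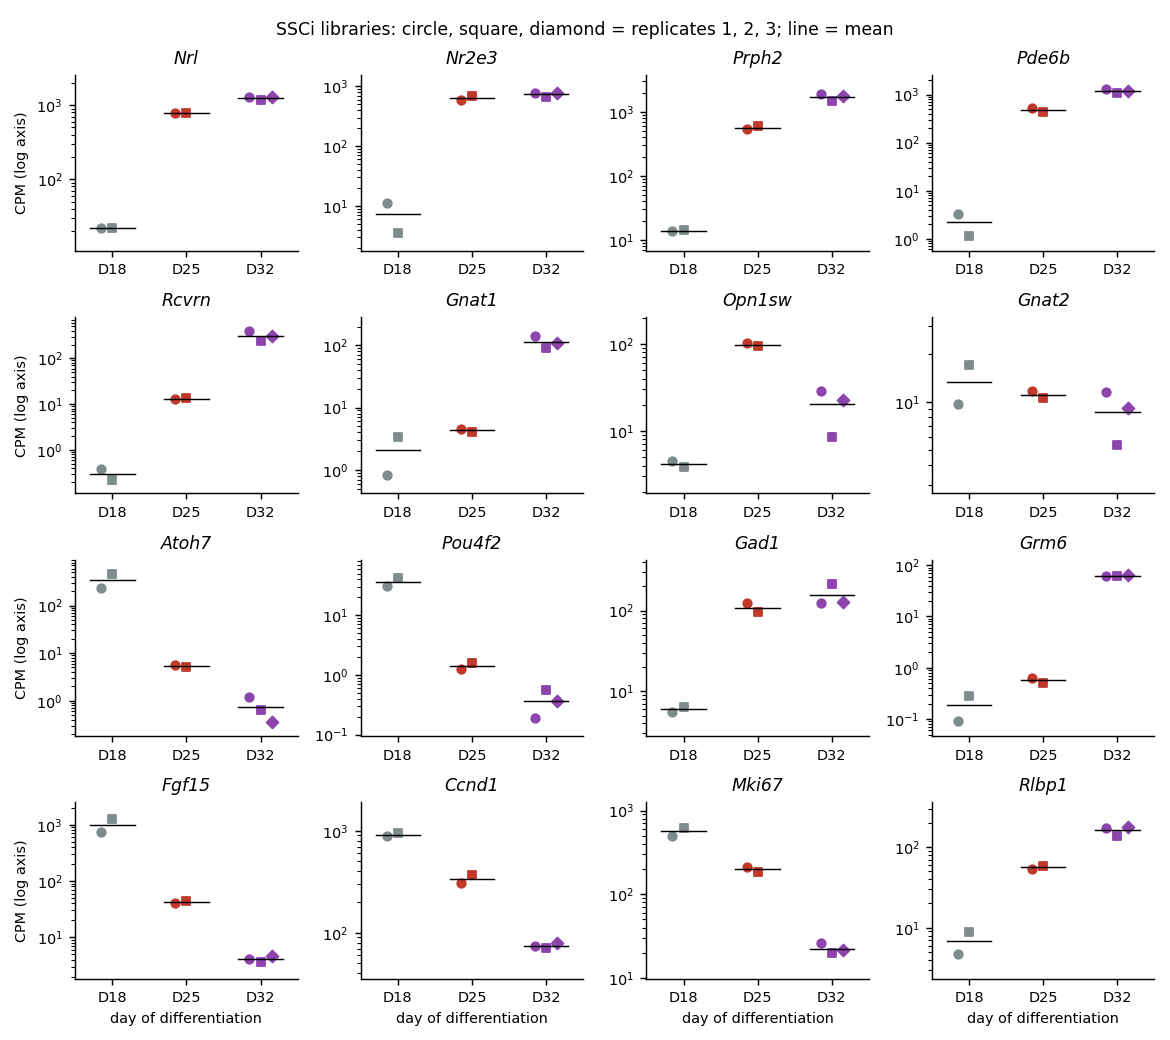
CPM (log axis) of 16 genes in each SSCi library at D18, D25 and D32, with circle, square and diamond for replicates 1, 2 and 3 and a line at the mean. The means of the rod genes are higher at each later day, Opn1sw peaks at D25 with 101 and 94.7 CPM, Atoh7 and Fgf15 drop, and Grm6 stays under 1 CPM until D32.

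In the list of ribbon and photoreceptor synapse genes 18 of 20 rose and none fell (median log2 fold change 2.08), and in the presynaptic list 23 of 27 rose and none fell (median 1.66). Of all genes 8.89% rose. Leave-outs gave 13 to 18, fewest without D18 replicate 1, for the former. For the latter they gave 14 to 22, fewest without D18 replicate 1. The calcium channel subunit gene Cacna2d4 rose from 28.1 and 34.6 CPM to 152 and 152 CPM (log2 fold change 2.28 ± 0.26 (SE), adjusted p = 1.11e-05). Cacnb2, another subunit, rose from 2.63 and 1.30 CPM to 36.8 and 22.8 CPM (log2 fold change 3.91 ± 0.46 (SE), adjusted p = 1.3e-05). Lrit2, a leucine-rich repeat membrane protein of the retina, rose from 4.08 and 4.07 CPM to 53.2 and 48.6 CPM (log2 fold change 3.64 ± 0.29 (SE), adjusted p = 2.95e-07). Snap25, a SNARE protein of vesicle fusion, was at 96.9 and 118 CPM at D18 and 753 and 610.0 CPM at D25 (log2 fold change 2.67 ± 0.28 (SE), adjusted p = 5.4e-06). The calcium sensor Syt1 and the vesicle proteins Sv2a and Syp rose by 1.83, 2.51 and 2.49 (adjusted p = 7.09e-06, 2.4e-05 and 2.71e-05). The active zone gene Rims1 rose by 4.74 (adjusted p = 1.25e-06), but the deposited table gives the same values to a second gene identifier, so its reads cannot be assigned.

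Amacrine cells are the inhibitory interneurons of the inner retina. Of 22 genes of their list 13 rose and 2 fell, against 8.89% and 10.9% of all genes (median log2 fold change 0.91). Leave-outs of 1 library gave rises of 7 to 12, fewest without D18 replicate 1 or D25 replicate 2. Gad1, which makes GABA, went from 5.58 and 6.44 CPM to 123 and 95.3 CPM (log2 fold change 4.18 ± 0.42 (SE), adjusted p = 3.1e-06). The calcium buffer Calb2 went from 5.67 and 10.00 CPM to 56.3 and 64.1 CPM (log2 fold change 2.94, adjusted p = 3.2e-05). The factor Tfap2a went from 6.19 and 9.94 CPM to 75.2 and 79.0 CPM (log2 fold change 3.26, adjusted p = 0.000134). Meis2 and Tfap2b, factors of GABAergic amacrine cells, rose by 2.07 and 1.98 (adjusted p = 8.28e-05 and 0.00576). Chat, the enzyme of starburst amacrine cells, had 2 counts over the D18 libraries and 4.16 and 6.56 CPM at D25, and was called (adjusted p = 0.00113). Ptf1a, which commits precursors to amacrine and horizontal fates, was at 13.3 and 17.0 CPM at D18 and 4.37 and 4.50 CPM at D25 (log2 fold change -1.77 ± 0.53 (SE), adjusted p = 0.0239), with the call lost in 3 leave-outs (adjusted p = 0.0905 without D18 replicate 2, 0.142 without D25 replicate 1 and 0.138 without D25 replicate 2). Tfap2c fell by 0.99 on the log2 scale (adjusted p = 0.00712), also with 3 calls lost (adjusted p = 0.0591 without D18 replicate 1, 0.0727 without D25 replicate 1 and 0.0677 without D25 replicate 2).

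In the horizontal cell list 5 of 12 genes rose and 3 fell, against 8.89% and 10.9% of all genes. With 1 library left out 4 rose, while the falls were 3 without D18 replicate 1 and 0 without each of the other 3 libraries. Calb1, their calcium buffer, rose from 1.27 and 1.02 CPM to 9.58 and 7.93 CPM (log2 fold change 2.93 ± 0.43 (SE), adjusted p = 0.000118). Foxn4, the factor upstream of Ptf1a, was at 97.1 and 190.1 CPM and then 28.0 and 44.7 CPM (log2 fold change -1.98 ± 0.55 (SE), adjusted p = 0.0146), not called in 3 leave-outs (adjusted p = 0.137 without D18 replicate 2, 0.149 without D25 replicate 1 and 0.0534 without D25 replicate 2). In the receptor list, 15 of 27 rose and 2 (7.41%) fell, against 8.89% and 10.9% of all genes. The rises numbered 9 to 12, fewest without D25 replicate 2, when 1 library was left out. The glycine receptor subunit Glra2 rose from 0.75 and 0.96 CPM to 29.7 and 18.3 CPM (log2 fold change 4.80, adjusted p = 1.01e-05). The AMPA receptor subunit Gria4 rose by 2.79 (adjusted p = 0.000111). Chrna3, a nicotinic acetylcholine receptor subunit, fell from 95.0 and 134 CPM to 26.9 and 25.2 CPM (log2 fold change -2.14, adjusted p = 3.2e-05).

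Of 25 tested bipolar genes 12 rose (48%) and 3 fell (12%), against 8.89% and 10.9% of all genes (median log2 fold change 1.18). Leave-outs of 1 library gave rises of 9 to 11, fewest without D18 replicate 1 or D25 replicate 2. Cabp5, a calcium-binding protein of bipolar cells, rose from 0.375 and 1.92 CPM to 16.1 and 12.2 CPM (log2 fold change 3.65 ± 0.63 (SE), adjusted p = 0.000523). Prdm8, a factor needed for their survival, and Car8 rose by 2.12 and 3.11 (adjusted p = 0.000683 and 0.000122). Grm6, the glutamate receptor that defines ON bipolar cells, was at 0.0938 and 0.282 CPM at D18, 0.634 and 0.5 CPM at D25, and 61.8, 62.7 and 63.8 CPM at D32. Vsx1, a factor of OFF cone bipolar cells, was likewise under 1 CPM in all 4 libraries. The channel Trpm1, also made by pigment cells, fell by 2.90 on the log2 scale (adjusted p = 0.0173), with 3 calls lost (adjusted p = 0.0572 without D18 replicate 1, 0.0884 without D25 replicate 1 and 0.156 without D25 replicate 2).

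Of 24 ganglion cell genes 8 fell and 1 rose (median log2 fold change -1.04), against 10.9% of all genes fallen. The falls numbered 4 to 6, fewest without D25 replicate 1 or D25 replicate 2, when 1 library was left out. Atoh7 (chr10:63099651-63101279, plus strand), the bHLH factor that makes progenitors competent for ganglion cell fate, was at 228 and 459 CPM at D18 and 5.56 and 5.00 CPM at D25, a log2 fold change of -6.02 ± 0.60 (SE) with an adjusted p of 2.67e-06. Both D25 libraries lay far below both D18 libraries. Pou4f2, the factor of differentiating ganglion cells, was at 30.6 and 42.6 CPM and then 1.27 and 1.56 CPM (log2 fold change -4.68 ± 0.83 (SE), adjusted p = 0.000682). Gap43, a growth cone protein, fell by 1.14 on the log2 scale (adjusted p = 0.00893), with the call lost in 2 leave-outs (adjusted p = 0.0919 without D18 replicate 2 and 0.123 without D25 replicate 2). Ebf3 fell by 1.64 (adjusted p = 0.0049), with the call lost in 1 (adjusted p = 0.0672 without D25 replicate 1). The gene that rose was Nefh, a heavy neurofilament of mature axons, which went from 1.78 and 1.41 CPM to 10.2 and 11.4 CPM (log2 fold change 2.75 ± 0.32 (SE), adjusted p = 1.3e-05).

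Mueller glia, the radial glia born last, share many genes with progenitors, and their list went both ways, with 4 of 22 risen and 6 fallen, and 3 to 4 risen and 5 to 6 fallen with 1 library left out. Over all genes the shares were 8.89% risen and 10.9% fallen. Rlbp1, the retinaldehyde-binding protein of Mueller glia and pigment epithelium, rose from 4.69 and 8.98 CPM to 53.6 and 59.1 CPM (log2 fold change 3.05 ± 0.33 (SE), adjusted p = 7.24e-06) and stood at 174, 139 and 179.6 CPM at D32. Crym, a thyroid-hormone-binding protein, rose from 6.14 and 8.02 CPM to 93.3 and 121 CPM (log2 fold change 3.92 ± 0.30 (SE), adjusted p = 1.74e-07). Glul, the glutamine synthetase of these glia, was at 243 and 312 CPM and then 265 and 279.5 CPM (adjusted p = 0.946). Among the members that fell, Sox2 and the Notch target Hes1 are also on the progenitor list. Sox2 went from 75.2 and 93.9 CPM to 30.4 and 33.3 CPM (log2 fold change -1.41, adjusted p = 0.000406). Hes1 fell by 1.31 on the log2 scale (adjusted p = 0.00658), with 2 calls lost (adjusted p = 0.0703 without D18 replicate 2 and 0.0901 without D25 replicate 1), and Dkk3, a secreted glycoprotein, had a log2 fold change of -1.23 (adjusted p = 0.000504).

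Progenitor genes fell in 10 of 23 cases and rose in 1, against 10.9% and 8.89% of all genes (median log2 fold change -0.81). Leave-outs of 1 library gave falls of 4 to 7, fewest without D25 replicate 1. Fgf15 (chr7:144896531-144900953, plus strand), a secreted growth factor of early and dividing progenitors, was at 728 and 1249 CPM at D18 and 41.4 and 43.5 CPM at D25 (log2 fold change -4.54 ± 0.67 (SE), adjusted p = 0.000134). The BMP target Id1 went from 56.8 and 68.6 CPM to 10.7 and 22.3 CPM (log2 fold change -1.92, adjusted p = 0.000765). The Wnt antagonist Sfrp2 fell by 2.54 (adjusted p = 0.00484), a call lost in 2 leave-outs (adjusted p = 0.119 without D18 replicate 1 and 0.0795 without D25 replicate 1) with a log2 fold change of -1.60 without D18 replicate 1. Pax6 was not called (adjusted p = 0.952), and the Notch target Hes5 was at 23.6 and 123 CPM at D18 and 29.8 and 75.8 CPM at D25, with overlapping days (adjusted p = 0.675). Sox8, on the list as a late progenitor and glial factor, was the 1 gene that rose, by 1.60 (adjusted p = 0.0168), and was not called in 2 leave-outs (adjusted p = 0.193 without D18 replicate 1 and 0.124 without D25 replicate 2).

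Among neurogenic genes 9 of 19 fell and 2 rose, against 10.9% and 8.89% of all genes (median log2 fold change -0.83). The falls numbered 6 to 9, fewest without D18 replicate 2 or D25 replicate 1, when 1 library was left out. Sox11, a factor of newborn neurons, was at 445 and 435 CPM at D18 and 123 and 103 CPM at D25 (log2 fold change -1.96 ± 0.28 (SE), adjusted p = 0.000111). The stress-response gene Gadd45a fell from 89.0 and 107 CPM to 11.1 and 15.6 CPM (log2 fold change -2.88, adjusted p = 1.19e-05). The proneural factor Neurog2 fell by 1.22 (adjusted p = 0.00171). Insm1, a zinc finger factor of precursors leaving the cycle, rose from 79.0 and 84.2 CPM to 174 and 178 CPM (log2 fold change 1.11, adjusted p = 0.00386). Of 20 Notch and FGF readouts 6 fell and none rose, with Notch3 at 79.4 and 95.0 CPM and then 9.02 and 17.4 CPM (log2 fold change -2.72, adjusted p = 0.00506) and 1 call lost (adjusted p = 0.0836 without D25 replicate 1). Falls of this list numbered 2 to 5, fewest without D25 replicate 1, in the leave-outs.

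Members of all 3 cell cycle lists fell, against 10.9% of all genes. Of 33 mitosis genes 29 fell and none rose (median log2 fold change -1.51), of 33 DNA replication genes 19 fell and none rose (median -1.18), and of 24 regulators of G1 10 fell and 1 rose. In the leave-outs the mitosis falls numbered 10 to 22, fewest without D25 replicate 2. The replication falls numbered 5 to 16, fewest without D25 replicate 2, and the G1 falls 4 to 7, fewest without D25 replicate 1. All 33 mitosis genes were lower in both D25 libraries than in either D18 library, against 30.4% of all genes. The summed level of the mitosis list was 3768 and 4787 CPM at D18 and 1602 and 1441 CPM at D25.

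Tpx2, which builds the spindle, went from 177 and 216 CPM to 58.3 and 56.3 CPM (log2 fold change -1.77 ± 0.29 (SE), adjusted p = 0.000352). Nusap1, which bundles its microtubules, went from 131 and 159 CPM to 49.2 and 34.9 CPM (log2 fold change -1.79 ± 0.34 (SE), adjusted p = 0.00106). Mki67, the proliferation antigen, was at 498 and 626 CPM at D18 and 213 and 184 CPM at D25 (log2 fold change -1.50 ± 0.47 (SE), adjusted p = 0.0277), and the call was lost in each leave-out (adjusted p = 0.0623 without D18 replicate 1, 0.119 without D18 replicate 2, 0.117 without D25 replicate 1 and 0.174 without D25 replicate 2). At D32 it was at 26.1, 19.6 and 21.3 CPM, below every D25 library. Among replication genes, the primase subunit Prim1, the reductase subunit Rrm1 and the helicase subunit Mcm4 had log2 fold changes of -1.53, -1.25 and -1.24 (adjusted p = 0.000558, 0.000715 and 0.00191).

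In G1, all 3 D-type cyclins fell. Ccnd1 (chr7:144929931-144939925, minus strand), the main D cyclin of retinal progenitors, went from 887 and 950.4 CPM to 308 and 368 CPM (log2 fold change -1.44 ± 0.25 (SE), adjusted p = 0.000569). Ccnd3 went from 87.6 and 105 CPM to 26.1 and 39.4 CPM (log2 fold change -1.55, adjusted p = 0.000749). Ccnd2 went from 459.9 and 102 CPM to 33.5 and 37.5 CPM, and its log2 fold change of -2.98 (adjusted p = 0.000681) became -1.51 without D18 replicate 1. The kinase Cdk2 fell by 1.51 (adjusted p = 0.000601). Cdkn1c, a kinase inhibitor of cells leaving the cycle, also fell, from 98.4 and 186 CPM to 44.7 and 63.7 CPM (log2 fold change -1.39, adjusted p = 0.00207), but not in every leave-out (adjusted p = 0.0768 without D18 replicate 2 and 0.0651 without D25 replicate 1). Rbl2, the pocket protein of resting cells, was the 1 gene that rose, by 0.84 (adjusted p = 0.0109), with 2 calls lost (adjusted p = 0.106 without D18 replicate 2 and 0.0772 without D25 replicate 1).

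Promoters of cell cycle genes carry known elements, and their letters were counted in the same 250-base windows. The CCAAT box was present in 24 of 28 promoters of mitosis genes (85.7%), against 33.8% of all promoters, and the core of the cell cycle homology region, TTTGAA, in 12 (42.9%), against 16%. Either of the E2F letters TTTGGCG and TTTCGCG was present in 8 of 34 promoters of replication genes (23.5%), against 1.93% of all. Among promoters of tested genes the shares were 34.9% for the CCAAT box, 11.2% for TTTGAA and 2.99% for either E2F run. In rod promoters the CCAAT box was present in 43.5%, TTTGAA in 4.35% and either E2F run in 8.70%. In replication promoters the CCAAT box was present in 67.6%, and in mitosis promoters either E2F run in 7.14%. The windows of Top2a, a topoisomerase of mitotic chromosomes (chr11:99024190-99024439, minus strand), and Cdk1, the kinase that starts mitosis (chr10:69352913-69353162, minus strand), are shown for their CCAAT and TTTGAA letters, and that of the helicase subunit Mcm5 (chr8:75109259-75109508, plus strand) for its 2 E2F matches, which overlap. Capitals mark, on either strand, only the letters for which each window is shown. The Cdk1 window also holds TTTCGCG and the Mcm5 window CCAAT letters, left in lower case. All 3 genes were chosen for the matches in capitals with their values known.
Top2a: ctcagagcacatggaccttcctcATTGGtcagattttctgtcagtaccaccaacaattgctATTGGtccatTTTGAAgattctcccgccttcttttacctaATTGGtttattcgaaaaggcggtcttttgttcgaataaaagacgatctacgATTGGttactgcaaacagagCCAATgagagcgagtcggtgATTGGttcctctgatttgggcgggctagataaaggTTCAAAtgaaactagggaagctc
Cdk1: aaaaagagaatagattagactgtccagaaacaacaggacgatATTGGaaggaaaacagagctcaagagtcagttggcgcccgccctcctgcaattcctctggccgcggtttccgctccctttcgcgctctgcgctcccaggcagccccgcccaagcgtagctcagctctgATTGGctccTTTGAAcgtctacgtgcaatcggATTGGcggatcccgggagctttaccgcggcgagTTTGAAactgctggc
Mcm5: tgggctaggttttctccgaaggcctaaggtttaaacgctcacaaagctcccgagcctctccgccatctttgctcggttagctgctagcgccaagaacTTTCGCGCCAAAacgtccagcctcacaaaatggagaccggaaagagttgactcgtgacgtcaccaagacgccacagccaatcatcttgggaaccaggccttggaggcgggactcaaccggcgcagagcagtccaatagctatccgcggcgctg
Top2a was at 634 and 761 CPM at D18 and 211 and 169 CPM at D25 (log2 fold change -1.88, adjusted p = 0.00366). Cdk1 was at 138 and 184 CPM and then 53.2 and 56.3 CPM (log2 fold change -1.55, adjusted p = 0.0239). Mcm5 was at 76.2 and 107 CPM and then 34.4 and 36.7 CPM (log2 fold change -1.37, adjusted p = 0.00827). The calls were lost for Top2a in 1 leave-out (adjusted p = 0.0598 without D25 replicate 2), for Cdk1 in each (adjusted p = 0.0543 without D18 replicate 1, 0.129 without D18 replicate 2, 0.149 without D25 replicate 1 and 0.13 without D25 replicate 2), and for Mcm5 in 3 (adjusted p = 0.0828 without D18 replicate 2, 0.086 without D25 replicate 1 and 0.0652 without D25 replicate 2).

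Of 25 sterol synthesis genes 9 fell and none rose, where 10.9% of all genes fell. Leave-outs of 1 library gave falls of 3 to 7, fewest without D25 replicate 2. Hmgcs1, an early enzyme of the pathway, went from 805 and 897 CPM to 468 and 379.8 CPM (adjusted p = 0.0039, and 1 call lost, adjusted p = 0.0805 without D25 replicate 2). Of 23 genes of serine synthesis and the ATF4 response 9 fell (0 to 6, fewest without D25 replicate 1, with 1 library left out), against the same share of all genes. Phgdh, the first enzyme of serine synthesis, was at 96.5 and 147 CPM and then 36.1 and 51.7 CPM (log2 fold change -1.47 ± 0.33 (SE), adjusted p = 0.00359, and 2 calls lost, adjusted p = 0.0544 without D18 replicate 2 and 0.0836 without D25 replicate 1). Of 32 genes of glycolysis and hypoxia 3 rose and 1 fell, a share of rises near the 8.89% of all genes. The 3 were Hk1, a hexokinase, by 1.59 (adjusted p = 0.000521), the brain and retina aldolase Aldoc by 2.04 (adjusted p = 0.00159), and the stress gene Ndrg1 by 1.86 (adjusted p = 0.000619). None of 27 nuclear genes of the respiratory chain and none of 13 mitochondrially encoded genes was called with edgeR over all 24 libraries, and none with DESeq2 or limma-voom. At an unadjusted edgeR p under 0.05 there were 1 and 0. With only the SSCi groups compared fitted, 1 mitochondrially encoded gene rose. At D25, 9 of the 13 were higher without overlap, against 26.8% of all genes. Their sum was 27677 and 24473 CPM at D18 and 48083 and 28778 CPM at D25.

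Imprinted growth genes fell in 6 of 13 cases and rose in none, where 10.9% of all genes fell. The falls numbered 2 to 5, fewest without D25 replicate 1, when 1 library was left out. Plagl1, a zinc finger factor that controls several of the others, went from 1102 and 825 CPM to 167 and 181 CPM (log2 fold change -2.47 ± 0.39 (SE), adjusted p = 0.000268). Mest, a hydrolase-like imprinted gene, went from 271 and 159 CPM to 70.3 and 64.1 CPM (log2 fold change -1.68, adjusted p = 0.000851). Of 19 p53 targets and apoptosis genes 11 fell, but 3 without D18 replicate 1, 6 without D25 replicate 1 and 5 without D25 replicate 2. Zmat3 was at 137 and 94.0 CPM and then 38.9 and 35.2 CPM (log2 fold change -1.64, adjusted p = 0.000324) and kept its call without D18 replicate 1 (adjusted p = 0.00808). Phlda3 was at 54.4 and 11.7 CPM and then 4.58 and 5.62 CPM and did not (adjusted p = 0.00311 and 0.2). The summed level of the mesenchyme list moved with these genes, and its part in their fall was not tested.

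In the ciliary margin list, 10 of 18 tested genes fell and none rose, against 10.9% and 8.89% of all genes. With 1 library left out 4 fell without D18 replicate 1 or D25 replicate 2, 5 without D25 replicate 1 and 10 without D18 replicate 2. Wfdc1 was at 20.7 and 22.3 CPM in the D18 libraries and 2.11 and 3.06 CPM in the D25 libraries (log2 fold change -3.05 ± 0.50 (SE), adjusted p = 0.000376), with like levels in both D18 libraries. Bmp4, the dorsal signal, was at 64.0 CPM in D18 replicate 1, 2.03 CPM in replicate 2 and 1.69 and 0.625 CPM at D25, and its call (adjusted p = 0.00255) was lost in 2 leave-outs (adjusted p = 0.602 without D18 replicate 1 and 0.055 without D25 replicate 2). Of 15 genes of retinoic acid handling 4 fell (2 to 5, fewest without D25 replicate 2, with 1 library left out). Crabp2, which carries retinoic acid to the nucleus, went from 199 and 307 CPM to 22.8 and 25.0 CPM (log2 fold change -3.41 ± 0.48 (SE), adjusted p = 8.06e-05). The synthesising enzymes of dorsal and ventral retina, Aldh1a1 and Aldh1a3, were at 1086 and 497 CPM and 3.94 and 18.3 CPM at D18 and 122 and 115 CPM and 1.97 and 1.75 CPM at D25 (log2 fold change -2.74 and -2.57, adjusted p = 0.00443 and 0.00597). Replicate 1 was the higher of the D18 libraries in Aldh1a1 and the lower in Aldh1a3. Both calls depended on single libraries, for Aldh1a1 with adjusted p = 0.0627 without D18 replicate 1 and 0.0582 without D25 replicate 2, and for Aldh1a3 with adjusted p = 0.247 without D18 replicate 2, 0.0538 without D25 replicate 1 and 0.072 without D25 replicate 2.

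The falls of mesenchyme and matrix genes, to be read beside 10.9% of all genes fallen, depended most on D18 replicate 1. Of 21 tested mesenchyme genes 18 fell (median log2 fold change -5.03) and of 20 matrix genes 14 (median -2.49), and without D18 replicate 1 the falls were 1 and 1, with medians of -0.75 and -0.81. They were 8 and 7 without D25 replicate 1 and 8 and 8 without D25 replicate 2. Of 10 tested microglia and immune genes 2 fell (median -3.31, or -1.72 with the 3 genes at 0 in a day set to the floor of 3 counts), and none was called without D18 replicate 1 (median 0.007), D25 replicate 1 or D25 replicate 2. Of 21 tested pigment epithelium genes 3 rose and 3 fell (14.3% each, against 8.89% and 10.9% of all genes, median -1.08), and with 1 library left out 1 to 4 rose and 0 to 4 fell. Postn, a secreted protein of connective tissue, was at 1034 CPM in D18 replicate 1, 3.73 CPM in replicate 2, and 0.775 and 1.06 CPM at D25. It was called (log2 fold change -9.12, adjusted p = 0.00344, and in leave-outs adjusted p = 0.326 without D18 replicate 1 and 0.0522 without D25 replicate 2). Fn1, fibronectin, was at 3799 and 158 CPM and then 54.6 and 69.7 CPM (adjusted p = 0.00315, and 0.303 without replicate 1). Of the 209 genes over 4-fold higher in D18 replicate 1, 144 were called lower at D25, and 17 without that library.

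Of the 10 deepest falls that held in each leave-out, among genes whose mean log2 CPM reached 3, 6 also carried this gap. Pdgfrb, the receptor of pericytes and mesenchyme, was at 143 and 17.8 CPM at D18 and 3.38 and 2.75 CPM at D25 (log2 fold change -4.71 ± 0.71 (SE), adjusted p = 0.000153). Without D18 replicate 1 its log2 fold change was -2.53 (adjusted p = 0.00401). Ccn1, a matrix-associated growth regulator, was at 174 and 26.8 CPM and then 1.90 and 3.06 CPM. Csf1, the macrophage growth factor, was at 152 and 10.8 CPM and then 3.31 and 3.06 CPM, and Colec12, a scavenger receptor, at 140.0 and 13.2 CPM and then 3.73 and 2.81 CPM. Their log2 fold changes of -5.33, -4.67 and -4.55 (adjusted p = 0.00104, 0.000318 and 0.000458) became -3.41, -1.75 and -2.00 without it. The neuropeptide precursor Penk went from 314 and 35.5 CPM to 7.04 and 8.68 CPM and the chromatin protein Hmga2 from 102 and 23.3 CPM to 2.47 and 1.94 CPM (log2 fold change -4.47 and -4.83, adjusted p = 0.000765 and 6.36e-05), and without D18 replicate 1 these were -2.16 and -3.39. In contrast the D18 libraries were alike for Slc38a4, an amino acid transporter, at 31.7 and 41.8 CPM and then 1.62 and 1.81 CPM (log2 fold change -4.41 ± 0.80 (SE), adjusted p = 0.000756). They were also alike for Fndc3c1, at 57.8 and 60.8 CPM and then 4.37 and 2.81 CPM (log2 fold change -4.05 ± 0.63 (SE), adjusted p = 0.000228).

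The same interval was then set beside that of the rotating culture, which shares no library with SSCi. In RWB 2508 genes rose (14.9%) and 2347 fell (14.0%). The difference between the changes was called for 484 genes, with 194 higher in SSCi (1.16%) and 290 lower (1.73%). The cultures differ in dissection, rotation and medium, and these cannot be told apart. Without SSCi D18 replicate 1 there were 16 higher and 16 lower, and without SSCi D18 replicate 2 there were 436 and 942. In both directions together, 44 and 32 were called without SSCi D25 replicate 1 and 2, 63 and 35 without RWB D18 replicate 1 and 2, and 226 without RWB D25 replicate 1. The call held whichever of the 9 libraries was left out for 21 of the 484 genes. RWB D25 replicate 1 stood at 13.1% mitochondrially encoded counts, against 3.95% to 5.76% in the other 4 RWB libraries of these days. Its nuclear respiratory chain list summed to 13965 CPM, against 6477 and 6247 CPM in RWB D25 replicates 2 and 3. The endoderm list summed to 76.4 and 135 CPM in RWB at D18 and to 973, 291 and 7.75 CPM at D25, against 1.19 to 9.75 CPM in SSCi on these days. The part of these libraries in the difference was not tested.

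Of 33 DNA replication genes 9 and of 33 mitosis genes 7 had a higher change in SSCi and none a lower one, against 1.16% of all genes. These counts rested on single libraries: without SSCi D18 replicate 1, SSCi D25 replicate 2 or RWB D18 replicate 2 both were 0, and without SSCi D18 replicate 2 they were 12 and 13. In RWB 32 and 33 of them fell, with medians of -2.35 and -2.95, and in SSCi 19 and 29, with medians of -1.18 and -1.51. Ccnd1 went from 887 and 950.4 CPM to 308 and 368 CPM in SSCi and from 761 and 770.1 CPM to 41.9, 51.0 and 48.6 CPM in RWB, a difference in log2 change of 2.58 ± 0.34 (SE) with an adjusted p of 0.000831. The D18 levels were alike, and every RWB D25 library was far below both SSCi D25 libraries. Mycl, a Myc family factor, was at 106 and 168 CPM and then 116 and 120.3 CPM in SSCi, and at 141 and 117 CPM and then 25.1, 31.1 and 29.4 CPM in RWB (difference 1.96 ± 0.28 (SE), adjusted p = 0.00164).

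Of 32 rod genes 2 had a higher change in SSCi and 1 a lower one, against 1.16% and 1.73% of all genes. With 1 of the 9 libraries left out the higher genes numbered 0 to 3, with 0 in 6 of the 9, and the lower ones 0 or 1, with 0 in 5. Guca1a, a guanylate cyclase activator of photoreceptors, was at 0.657 and 0.678 CPM at D18 and 0.986 and 0.812 CPM at D25 in SSCi, and in RWB at 0.332 and 0 CPM and then 45.8, 26.4 and 29.8 CPM (difference -7.18 ± 1.14 (SE), adjusted p = 0.00433). All libraries of both cultures were under 1 CPM at D18, and the cultures stood far apart at D25.

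Hr, Klf9 and Dbp rose in RWB and were not called in SSCi, and the difference was called for each. Hr, a nuclear corepressor that thyroid hormone switches on in brain, was at 4.41 and 3.11 CPM and then 2.47 and 3.19 CPM in SSCi and at 1.93 and 3.71 CPM and then 39.6, 63.0 and 75.9 CPM in RWB (difference -4.81 ± 0.67 (SE), adjusted p = 0.00164). Klf9, a zinc finger factor that thyroid hormone and glucocorticoids switch on, was at 19.4 and 7.91 CPM and then 13.9 and 12.9 CPM in SSCi and at 6.44 and 5.53 CPM and then 43.6, 49.3 and 43.2 CPM in RWB (difference -2.95 ± 0.47 (SE), adjusted p = 0.00433). Dbp, an output factor of the circadian clock, was at 15.6 and 13.8 CPM and then 8.80 and 11.6 CPM in SSCi and at 2.79 and 3.44 CPM and then 20.1, 21.2 and 19.6 CPM in RWB (difference -3.23 ± 0.29 (SE), adjusted p = 1.25e-05). At D32, after serum, B27 and amino acids had been added, the SSCi libraries had 71.5, 64.0 and 64.7 CPM of Hr. Klf9 was then at 106, 103 and 118 CPM and Dbp at 34.1, 33.5 and 32.7 CPM, and all 3 genes were above their D25 levels. Time and medium cannot be told apart in these D32 levels. Gjd2, the gap junction protein of retinal neurons, rose in both cultures, from 13.7 and 14.1 CPM to 26.3 and 21.9 CPM in SSCi and from 2.92 and 2.77 CPM to 56.4, 41.4 and 44.2 CPM in RWB, and less in SSCi (difference -3.26 ± 0.38 (SE), adjusted p = 0.000219), where its call was lost in each leave-out (adjusted p = 0.185 without D18 replicate 1, 0.0919 without D18 replicate 2, 0.155 without D25 replicate 1 and 0.0796 without D25 replicate 2). Mef2c, a factor of differentiating neurons, fell in SSCi and rose in RWB, at 13.8 and 4.41 CPM and then 2.04 and 2.19 CPM in SSCi and at 2.12 and 2.23 CPM and then 10.1, 8.78 and 10.7 CPM in RWB (difference -4.28 ± 0.68 (SE), adjusted p = 0.00433), and its fall in SSCi was lost in 3 leave-outs (adjusted p = 0.214 without D18 replicate 1, 0.0575 without D25 replicate 1 and 0.0509 without D25 replicate 2). Of the 20 genes with the smallest p for the difference, 10 in each direction, 18 were called whichever of the 9 libraries was left out, and none was called when only these 4 groups were fitted (adjusted p = 0.0818 to 0.212), a fit in which 1893 genes had an unadjusted p under 0.05.

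**Figure D5:**
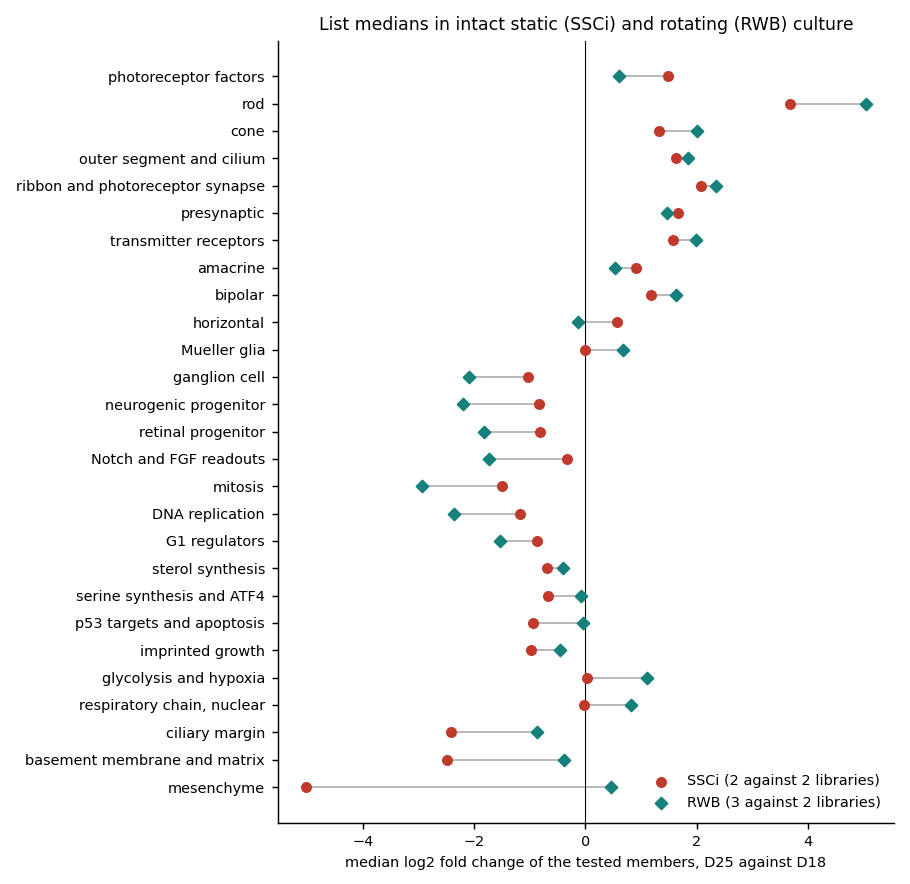
Median log2 fold change from D18 to D25 of the tested members of each list in SSCi (red circles) and RWB (green diamonds), joined by a line. Mitosis lies at -1.51 in SSCi and -2.95 in RWB, and rod at 3.67 and 5.05. Mesenchyme lies at -5.03 and 0.45, and its SSCi value rests on D18 replicate 1.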

How the data were processed

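Polyadenylated RNA of 24 organoid samples was sequenced from stranded paired-end libraries, per the labels' protocols. Per the submitters' processing notes, GRCm38.p5, limma 3.32.2, edgeR 3.13.9 and kallisto 0.42.5 were used, in no stated role, and the way transcripts became genes is not given in the sources used here. In all, the gene table deposited by the authors holds estimated counts for 33846 genes, of which 33331 had a symbol. The transcript table of estimated counts and the authors' normalized table, a score that for each library is its CPM multiplied by a constant, were used only for checks.

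Counts were rounded and fitted with edgeR 4.0.16 (R 4.3.3): filterByExpr by group, TMM, 9 group means over all 24 libraries so that groups of 2 share the spread, quasi-likelihood F-test and Benjamini-Hochberg adjustment over 16792 genes, with a threshold of 0.05. Log2 CPM use a prior count of 2. The contrasts were SSCi D25 minus D18 and that difference minus the same in RWB. Alternatives were another scaling, DESeq2 1.42.0, limma-voom 3.58.1, other filters, fewer libraries and the replicate number as a block. Values identical to another gene's were found for 240 tested genes. Genes that share sequence are uncertain in such estimates. The fit was tested on simulated data.

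Named genes were the 10 largest changes in each direction that kept their call with each library left out, among genes whose mean log2 CPM reached 3, up to 5 called members per list and direction with the smallest p, a panel of 34 genes, the 10 widest gaps between the D18 libraries, and the 10 smallest p in each direction for the difference. Genes with 3 or fewer counts in a group get no fold. Some genes that this rule names are not reported here. The members and the 47 lists were chosen with earlier results of these data known. Gene positions are from GENCODE on GRCm38. P-values rest on a spread estimated over all libraries fitted, not on that between the 2 libraries of a day alone, and this spread may be technical in part.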

Additional observations from a re-analysis of the deposited data

Results flagged for a closer look

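The change from D18 to D25 differed between SSCi and RWB, by edgeR's test of the difference itself, for 194 genes that were higher and 290 that were lower in SSCi. The 10 genes with the smallest p in each direction are given here with their difference in log2 change, SSCi minus RWB.

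Among those higher in SSCi, Ccnd1 (2.58) and Mycl (1.96) were described above. The axonemal dynein gene Dnaic1 differed by 4.03 (adjusted p = 0.000219), the tetraspanin Tspan15 by 2.26, Tmem92 by 2.63, the keratin Krt73 by 4.57, the pseudokinase Trib2 by 1.35, 2610318N02Rik by 2.81, Carhsp1 by 1.58 and AA623943 by 3.17. Dnaic1 was at 16.6 and 25.5 CPM and then 77.8 and 70.9 CPM in SSCi, and at 31.9 and 26.5 CPM and then 8.64, 4.36 and 6.04 CPM in RWB.

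Among those lower in SSCi, Dbp (-3.23), Gjd2 (-3.26), Hr (-4.81), Mef2c (-4.28), Klf9 (-2.95) and Guca1a (-7.18) were described above. Tuft1 differed by -2.36, the formin Fmn1 by -4.48, the Wnt pathway receptor Lgr5 by -3.54 and Nudt18 by -1.95. Lgr5 was not called without SSCi D25 replicate 2 (adjusted p = 0.0508), nor Nudt18 without SSCi D25 replicate 1 (adjusted p = 0.067) or RWB D18 replicate 2 (adjusted p = 0.0677).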

How the results depend on the processing

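The counts of genes changed from D18 to D25 stayed within 1.5 times of 3331 under another scaling, DESeq2, limma-voom and both other filters on low counts. With only the 4 SSCi libraries fitted the count was 1124 (754 risen, 370 fallen, so 67.1% of calls were rises against 44.8%). With 1 library left out it lay between 1450 and 3130, with 795 to 1370 rises and 560 to 1760 falls. Of the 123 called genes named, 87 kept their call whichever library was left out. For the difference in change, 484 genes became 1196 with DESeq2 (466 higher, 730 lower), 226 with limma-voom (71 lower), 272 without a filter (140 lower) and 0 with only the 4 groups fitted (0 higher, 0 lower, though 1893 had an unadjusted p under 0.05). With 1 library left out it lay between 32 and 1378 (16 to 436 higher, 12 to 942 lower). The cause of these differences was not tested. With the replicate number as a block, 4084 genes were called from D18 to D25 (1830 risen, 2254 fallen), and 995 for the difference (511 higher, 484 lower). Samples of 1 number correlated at 0.168 between SSCi D18 and D25 and at -0.189 between SSCi D18 and RWB D18. With 2 libraries a group the 2 pairs give the same value, so these values cannot decide whether the number pairs samples. Replicate 1 had the highest mitochondrially encoded share in SSCi D18, SSCi D25, RWB D22 and RWB D25. The same held in static culture of dissected cups (SSCd) at D18 and D22. In replicates 1, 2 and 3 the shares were 10.2%, 5.21% and 4.42% in RWB D22. They were 9.57%, 3.08% and 2.63% in SSCd D18 and 8.26%, 3.41% and 3.25% in SSCd D22. Replicate 1 was not the highest in RWB D18, SSCi D32 or SSCd D28. A batch shared by number was not tested, and the main fit does not pair by it. The signs that reversed were those of Cryab (-4.07 to 0.78 with a library left out, the highest without D18 replicate 1) and of genes not called: Glul (0.0074 with at least 10 counts in 4 libraries, 0.0258 with only the groups compared, -0.19 to 0.22 with a library left out), Klf9 (0.0829 with limma-voom, 0.0157 with the filter of 10 counts, 0.0189 with only the groups compared, 0.0243 with the block, and -0.47 to 0.77 with a library left out), and, with a library left out, Gnat2 (-0.61 to 0.26), Hes5 (-1.30 to 1.23), Ift88 (-0.0371 at the lowest), Mycl (-0.50 to 0.22), Pax6 (-0.22 to 0.43) and Vsx1 (-0.10 to 0.98). Simulated data at this depth gave 25% of 2-fold and 74% of 4-fold changes between the days, and 5% and 52% for the difference. False calls there were 6 of 105 and 4 of 61. The simulation changed few genes and held no library unlike its replicate, so these rates may not hold in the data.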

Other observations

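Regulators of neuronal splicing rose in 6 of 21 cases and fell in none with edgeR, against 8.89% of all genes risen, while 4 were lower at an unadjusted p under 0.05 and 2 were called lower by DESeq2 and none by limma-voom. With 1 library left out the rises numbered 3 to 6, fewest without D18 replicate 1 or D25 replicate 2. Srrm4, which drives the inclusion of neuronal microexons, went from 95.1 and 136 CPM at D18 to 331 and 331 CPM at D25 (log2 fold change 1.52, edgeR adjusted p = 0.000474). Rbfox1, a splicing factor of mature neurons, went from 4.74 and 6.78 CPM to 37.8 and 49.3 CPM (log2 fold change 2.92, adjusted p = 0.00014). In both genes the days did not overlap.

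Genes of the nuclear lamina and chromatin fell in 7 of 23 cases and rose in 1, with 3 to 7, fewest without D25 replicate 2, falling when 1 library was left out. Over all genes 10.9% fell and 8.89% rose. Lbr, the lamin B receptor that tethers heterochromatin to the nuclear envelope, went from 102 and 127 CPM to 58.1 and 53.4 CPM (log2 fold change -1.04, adjusted p = 0.00136), and Cbx1, a heterochromatin protein, from 223 and 249 CPM to 134 and 106 CPM (log2 fold change -0.97, adjusted p = 0.00126). The immediate early gene Nr4a1 rose from 13.9 and 12.4 CPM to 49.6 and 69.4 CPM (log2 fold change 2.18, adjusted p = 0.000188). Of 15 MHC and interferon genes 5 fell, while none was called without D18 replicate 1 or D25 replicate 2, 1 without D25 replicate 1 and 6 without D18 replicate 2. B2m, the light chain of MHC class I, was at 282 CPM in D18 replicate 1, 38.5 CPM in replicate 2, and 24.6 and 17.7 CPM at D25.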
